A study of Mus musculus with 16 samples.

Results

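The TGF-beta group described here comprised 10 genes chosen by name from the 24411 gene symbols of the series. They were the 3 ligands Tgfb1, Tgfb2 and Tgfb3, the receptors Tgfbr1 and Tgfbr2, the latent TGF-beta binding proteins Ltbp1, Ltbp2, Ltbp3 and Ltbp4, and the signal transducer Smad3. RNA was sequenced from spinal cord of 16 female C57BL/6J mice, and those with spinal cord injury (SCI) were injured at 12 weeks of age. Of these, 7 mice (SCI + Atorvastatin) received a moderate 0.25 mm lateral compression of the cord and, from 2 weeks later, atorvastatin at 10 mg/kg each day for 4 weeks. Another 7 mice (SCI + Vehicle) had the same injury and the carrier solution alone, and 2 mice (Uninjured Control) had neither injury nor treatment and served as the baseline. The sources used here differ on the age of the controls when their cord was taken, but all place it below that of the SCI mice, whose cord was taken 6 weeks after injury, so age and injury cannot be told apart. The tissue was a 5 mm segment, so each value is an average over all cell types of that segment. Atorvastatin is a statin, an inhibitor of HMG-CoA reductase in the mevalonate pathway.

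TGF-beta ligands are secreted as inactive complexes in which the mature dimer stays bound to its own propeptide. Latent TGF-beta binding proteins tether these complexes to the extracellular matrix, where integrins, proteases and thrombospondin can free the ligand. The active ligand brings the type II receptor Tgfbr2 and the type I receptor Tgfbr1 together, Tgfbr1 then phosphorylates Smad2 and Smad3, and these enter the nucleus with Smad4. In injured cord the pathway is known for its part in scar formation, matrix deposition and the tuning of microglia.

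Promoter sequences of 9 members, 13 in all, were taken from RefSeq on GRCm38.p6, and none was at hand for Tgfb3. Each covers 250 bases before the annotated start and 50 bases from it. Of these, 4 are printed. They show how the ligand genes Tgfb1 and Tgfb2 differ from each other. They also show that Ltbp1, the member with the smallest p between the treatments, has 2 starts which a count per gene adds together. Capitals mark matches, on either strand, to the GC box GGGCGG, the TATA box TATAAA, the cAMP response element TGACGTCA, the AP-1 site TGANTCA and the SMAD box CAGAC. Sequences run 5′ to 3′ on the strand of the gene.
Tgfb1, chr7:25686752-25687051, plus strand: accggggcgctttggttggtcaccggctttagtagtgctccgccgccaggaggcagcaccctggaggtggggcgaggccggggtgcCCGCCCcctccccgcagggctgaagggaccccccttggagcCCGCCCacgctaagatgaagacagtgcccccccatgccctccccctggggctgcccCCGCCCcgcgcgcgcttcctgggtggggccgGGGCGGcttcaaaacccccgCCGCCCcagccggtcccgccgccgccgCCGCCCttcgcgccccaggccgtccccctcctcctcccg
Tgfb2, chr1:186705940-186706239, minus strand: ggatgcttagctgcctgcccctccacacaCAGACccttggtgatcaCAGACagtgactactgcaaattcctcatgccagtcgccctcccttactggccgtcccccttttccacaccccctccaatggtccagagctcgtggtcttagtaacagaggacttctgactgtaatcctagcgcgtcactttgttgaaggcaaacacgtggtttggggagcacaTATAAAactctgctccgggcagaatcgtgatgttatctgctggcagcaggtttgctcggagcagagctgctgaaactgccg
Ltbp1 first start, chr17:75005279-75005578, plus strand: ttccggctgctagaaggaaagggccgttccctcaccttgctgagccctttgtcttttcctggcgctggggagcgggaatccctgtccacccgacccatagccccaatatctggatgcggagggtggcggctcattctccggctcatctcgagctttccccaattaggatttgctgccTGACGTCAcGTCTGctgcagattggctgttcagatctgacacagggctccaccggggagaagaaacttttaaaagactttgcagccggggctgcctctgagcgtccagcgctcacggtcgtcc
Ltbp1 second start, chr17:75178531-75178830, plus strand: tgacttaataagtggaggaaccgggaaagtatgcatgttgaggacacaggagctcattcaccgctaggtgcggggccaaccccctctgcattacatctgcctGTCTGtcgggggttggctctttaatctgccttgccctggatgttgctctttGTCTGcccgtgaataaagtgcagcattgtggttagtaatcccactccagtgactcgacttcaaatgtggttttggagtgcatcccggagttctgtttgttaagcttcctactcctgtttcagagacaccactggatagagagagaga
The Tgfb1 window was 77.0% G and C, against a median of 52.7% over all 32851 mouse promoters of the same length, and held 6 GC boxes and no TATA box. The Tgfb2 window held no GC box, a TATA box that begins 31 bases before the start, and 2 SMAD boxes. The first Ltbp1 window held a cAMP response element 73 bases before the start with a SMAD box 64 bases before it, and the second window held 2 SMAD boxes. Of all promoters, 35.7% held a GC box, 13.6% a TATA box, 1.79% the cAMP response element, 7.81% the AP-1 site and 49.6% a SMAD box. Such matches describe letters and do not show that a factor binds.

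Libraries held 14823292 to 25579826 counts on genes. The Uninjured Control libraries stood apart from the rest in several measures. Among 3245 genes that averaged between 200 and 500 counts over injured animals, 13.9% and 17.6% had no count at all in the 2 controls, against at most 0.247% in any SCI mouse. The 8 liver markers summed to 1205 and 6197 TPM in the controls and to 1.68 to 11.6 TPM in the SCI mice. All 6 markers of astrocytes, 6 of oligodendrocytes and 8 of neurons had counts in every group. In the SCI + Vehicle group, replicate 7 had the lowest sums for fibroblast markers (77.9 TPM) and Schwann cell markers (2.22 TPM). The second lowest sums of that group were also low, at 146 and 11.9 TPM beside medians of 653 and 112 TPM. Replicate 7 was lowest too for the markers of microglia or macrophages, of endothelium and of smooth muscle or pericytes.

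In injured cord the receptors and Ltbp3 were the most abundant of the 10 genes, and Ltbp2 the least. On the TPM scale, which is per length of transcript and so allows genes to be compared, the means in SCI + Vehicle were 49.2 ± 6.34 for Tgfbr2, 47.2 ± 11.5 for Ltbp3 and 38.3 ± 7.80 for Tgfbr1 (SD, n = 7). Ltbp1 averaged 10.8 ± 3.84 TPM and Ltbp2 1.45 ± 0.641 TPM in the same mice. In SCI + Atorvastatin the order of the first 4 genes was the same, with Tgfbr2 at 57.9 ± 5.17, Ltbp3 at 53.0 ± 7.86, Tgfbr1 at 44.7 ± 3.35 and Tgfb1 at 39.2 ± 15.7 TPM. Neighbours in that order mostly did not separate. With vehicle the ranges of neighbours overlapped for every step except that from Ltbp1 down to Ltbp2, and with atorvastatin for every step except those from Tgfb3 to Smad3 and from Tgfb2 to Ltbp2. In the controls Ltbp3 had the highest mean (16.4 and 43.2 TPM) and the ranges of all neighbours in the order overlapped. In Uninjured Control replicate 1 it lay below Ltbp4, Smad3, Tgfbr1 and Tgfb3, at 24.2, 24.1, 20.5 and 16.95 TPM.

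**Figure D1:**
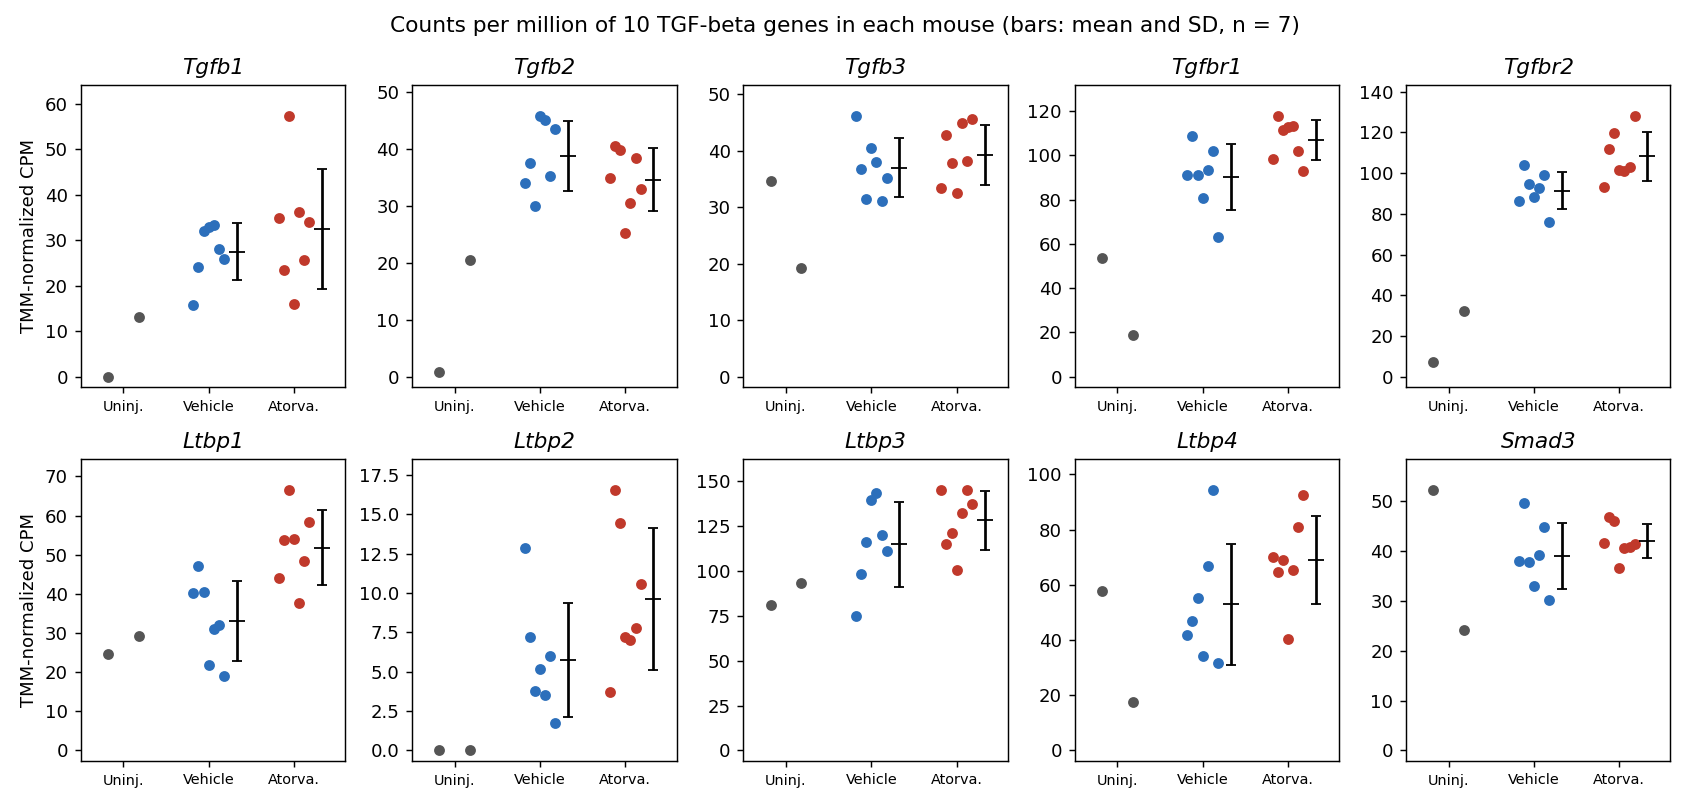
Each panel shows 1 gene, with TMM-normalized CPM on the vertical axis and 1 point for each mouse in the Uninjured Control, SCI + Vehicle and SCI + Atorvastatin groups. Bars give the mean and SD of the groups of 7 mice. The controls lie below all SCI mice for both receptors, while the SCI groups overlap for all 10 genes.

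The 3 comparisons were made with edgeR over 16091 genes. Against Uninjured Control a gene was called when its adjusted p was below 0.05 and its log2 fold change was above 0.322 in size, and between the treatments when its unadjusted p was below 0.001 with the same fold. With vehicle, 3 of 10 members rose against Uninjured Control, namely Tgfbr1, Tgfbr2 and Ltbp2, where 19.9% of all genes tested were called higher. With atorvastatin, 5 of 10 rose, the same 3 with Ltbp1 and Ltbp3, where 24.9% of all genes were called higher. No member was called lower in either, while 29.8% and 38.9% of all genes were called in one direction or the other. The log2 fold change was above 0 for 10 of 10 members in both, beside 57.4% and 58.3% of all genes. All SCI + Vehicle mice were above both controls in CPM for 5 members (24.8% of all genes), and all SCI + Atorvastatin mice for 7 members (29.8%). The 2 comparisons share the same controls and are given side by side for that reason only. The members had a median log2 fold change of 0.90 (vehicle) and 1.26 (atorvastatin), beside 0.17 and 0.21 over all genes tested. These counts rested on the 2 controls. Without either one a single control remains, so no count is given for those fits. With limma's voom and a weight for each group, an alternative chosen after seeing the data, 0 and 0 were called. The share of all genes called in that alternative is not given.

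Between SCI + Atorvastatin and SCI + Vehicle 0 of 10 members were called by edgeR, beside 0.106% of all genes. At an unadjusted p below 0.05 there were 3, Ltbp1, Tgfbr2 and Tgfbr1, all higher with atorvastatin, where 4.02% of all genes were at that level and higher. DESeq2 put 4 members below 0.05 and called 1, which was Ltbp1, and the share of all genes under DESeq2 is not given here. The log2 fold change was above 0 for 9 of 10 members and for 48.7% of all genes, and its median was 0.24 over the members and -0.00140 over all genes.

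**Figure D2:**
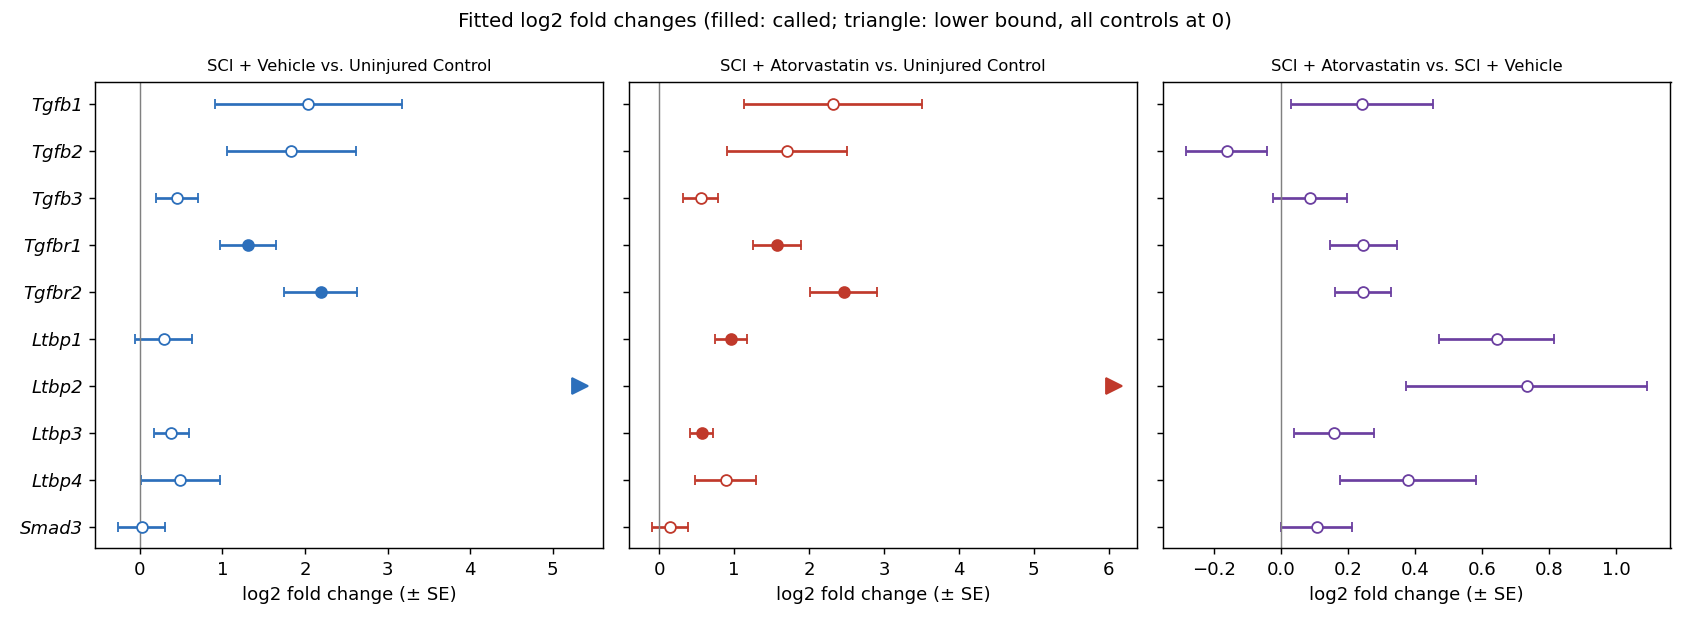
Fitted log2 fold changes with their standard errors for the 10 genes (rows) in 3 comparisons (panels, each with its own horizontal scale). Filled symbols are called, and triangles for Ltbp2 give its lower bound, since both controls had no count; Tgfbr2 reaches 2.19 and 2.46 against the controls.

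None of the 3 ligands was called against the controls in the main edgeR fit. All 3 were called in both comparisons with limma on log2 TPM, where the share of all genes called is not given. In CPM, Tgfb1 and Tgfb2 were higher in all injured mice than in either control, while in TPM the lowest vehicle mouse for Tgfb1 lay below the second control. Tgfb1, the ligand most tied to inflammation and scarring (chromosome 7, 25687002 to 25705077, GRCm38), was at 15.7 to 42.6 TPM with vehicle, median 31.8, and at 18.9 to 68.7 with atorvastatin, median 38.7. The controls had 0 and 289 counts, or 0 and 17.9 TPM. Against them the log2 fold change was 2.04 ± 1.13 (SE) in vehicle mice (edgeR adjusted p = 0.203) and 2.32 ± 1.19 with atorvastatin (adjusted p = 0.152). The control mice differed from each other so much that in this fit a fold of this size was not separable from their spread. Without Uninjured Control replicate 1, which had the count of 0, the log2 fold changes of Tgfb1 were 1.06 and 1.32 against the single control left. Without replicate 2 no fold is given against the single control at 0. Between the treatments the log2 fold change of Tgfb1 was 0.24 ± 0.212, and the fold of 1.18 had a 95% interval of 0.887 to 1.58.

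Tgfb2 (chromosome 1, 186622792 to 186705989), an isoform with broad roles in development, was at 12.4 to 24.0 TPM with vehicle, median 19.4. With atorvastatin it was at 12.9 to 21.1 TPM, median 16.6. The controls had 17 and 452 counts, or 0 and 10.3 TPM. It was the 1 member with a negative log2 fold change between the treatments, -0.16 ± 0.122, with a fold interval of 0.757 to 1.05. Against the controls its log2 fold changes were 1.83 with vehicle and 1.70 with atorvastatin, at edgeR adjusted p of 0.103 and 0.117. They rested on which control was used. Against the single control left, they were 0.90 and 0.77 without Uninjured Control replicate 1 and 5.48 and 5.33 without replicate 2.

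Tgfb3 (chromosome 12, 86056745 to 86079041) varied least of the ligands, at 23.0 to 33.5 TPM with vehicle and 24.3 to 34.8 TPM with atorvastatin. The controls had 690 and 426 counts, and the first of them lay inside the vehicle range in CPM. Its TPM in those mice was 17.0 and 1.27, so that both deposited scales disagree in the second control, where TPM per count was 0.0904 of the SCI median. The log2 fold change against the controls was 0.45 (SCI + Vehicle) and 0.55 (SCI + Atorvastatin), and it was 0.09 ± 0.110 between the treatments. Against a single control, Tgfb3 was at 0.93 and 1.04 without Uninjured Control replicate 1 and at 0.08 and 0.18 without replicate 2. The gene Ttll5 lies on the opposite strand across Tgfb3, and since the strand setting of the counting is not given in the sources used here, reads of both genes cannot be told apart.

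Of the summed ligand TPM, Tgfb1 made up 40.4% ± 7.22 with vehicle and 44.7% ± 8.23 with atorvastatin (SD, n = 7). Tgfb3 made up 36.4% and 35.2%, and Tgfb2 23.2% and 20.1%. The shares overlapped between the treatments. Taken over counts, which are not per length, the Tgfb1 share was 26.6% and 29.7%.

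**Figure D3:**
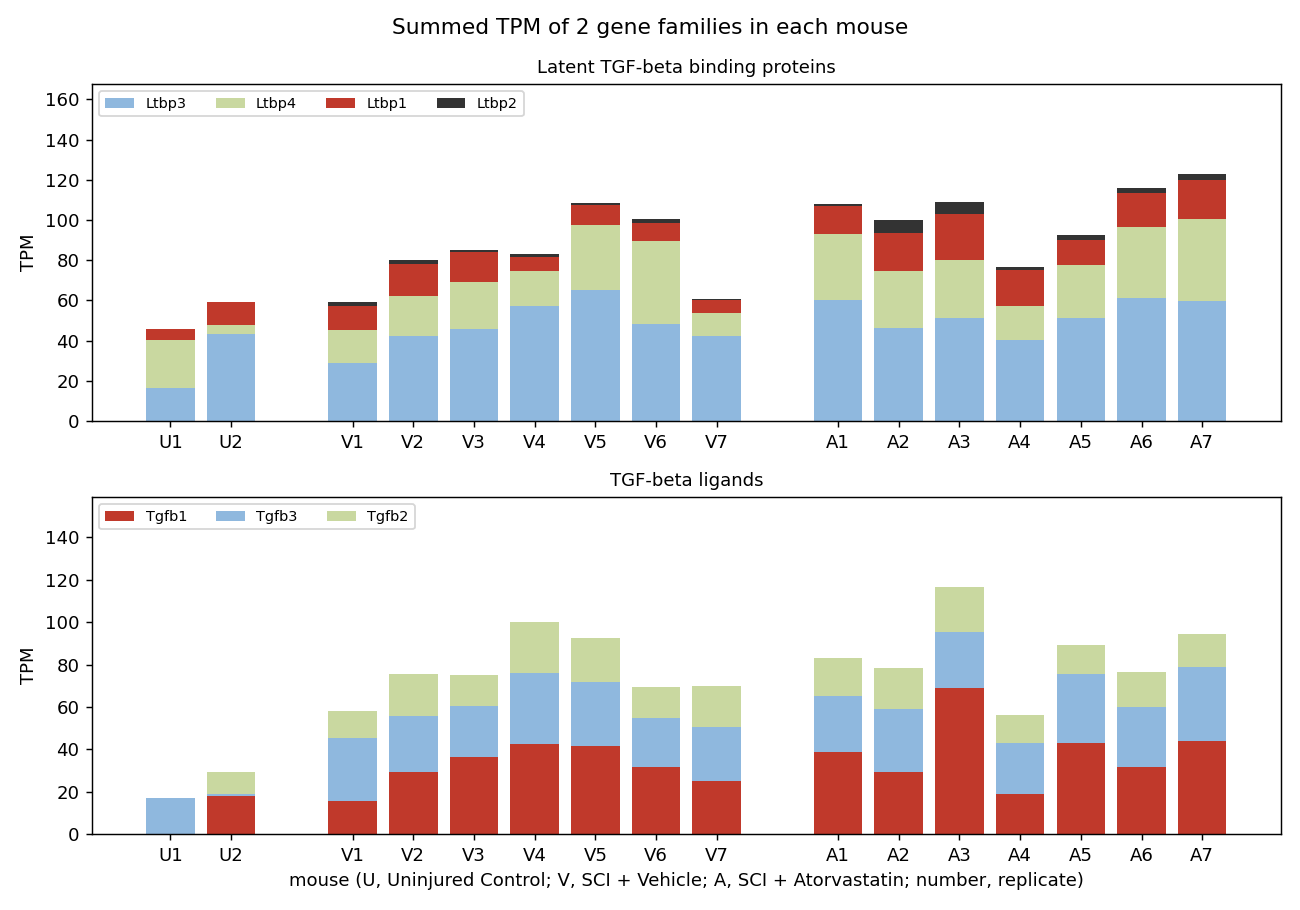
Stacked bars of TPM for the latent TGF-beta binding proteins (upper panel) and the ligands (lower panel), 1 bar for each mouse. Ltbp3 is the largest block in the SCI mice, Ltbp2 is a thin block absent from both controls, and the ligand sum is 17.0 and 29.5 TPM in the controls against 56.1 to 117 TPM in the SCI mice.

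Both receptor genes rose in injured cord. Tgfbr2, the type II receptor that binds the ligand first (chromosome 9, 116084293 to 116175360), was at 38.1 to 58.5 TPM with vehicle, median 49.0, and at 52.4 to 66.6 with atorvastatin, median 57.9. The controls were at 3.70 and 15.8 TPM, below every SCI mouse. For SCI + Vehicle the log2 fold change was 2.19 ± 0.441 (edgeR adjusted p = 0.00424) and 2.46 ± 0.449 with atorvastatin (adjusted p = 0.00177), which is 4.56-fold and 5.51-fold. The size depended on the control, since the log2 values were 1.49 and 1.76 without Uninjured Control replicate 1 and 3.63 and 3.89 without replicate 2. Tgfbr2 was called with each SCI mouse left out. Without 1 of the controls a single mouse formed the baseline and the spread between controls did not enter, so only the log2 values are given.

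Tgfbr1, the type I receptor kinase (chromosome 4, 47353222 to 47414931), was at 24.2 to 48.4 TPM with vehicle and 38.5 to 48.3 with atorvastatin, against 20.5 and 7.71 in the controls. For SCI + Vehicle its log2 fold change was 1.31 ± 0.344 (edgeR adjusted p = 0.0162) and 1.57 ± 0.317 with atorvastatin (adjusted p = 0.00316). Here the larger values, 2.24 and 2.51, came without Uninjured Control replicate 1 and the smaller, 0.73 and 1.00, without replicate 2. Tgfbr1 too was called with each SCI mouse left out. The 8 markers of microglia and macrophages summed to 145 and 221 TPM in the controls, 951 to 1415 with vehicle and 1349 to 1655 with atorvastatin. Of these 8 markers, 5 were called higher with vehicle and 6 with atorvastatin. In bulk tissue more cells of a type and more RNA in each cell cannot be told apart, and the part of these cells in the receptor values was not tested.

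Between the treatments the receptors differed little in size and in the same direction. Tgfbr2 averaged 108 ± 12.1 CPM with atorvastatin and 91.4 ± 9.13 with vehicle (SD, n = 7), a log2 fold change of 0.24 ± 0.0848 at an unadjusted p of 0.00886 and an adjusted p of 0.680. In CPM, 3 of the 7 mice given atorvastatin exceeded every vehicle mouse. Tgfbr1 averaged 107 ± 9.16 CPM against 90.1 ± 14.9, a log2 fold change of 0.25 ± 0.0991 at an unadjusted p of 0.0215 and the same adjusted p. Without SCI + Vehicle replicate 7, the lowest mouse for both genes, the log2 fold changes were 0.20 and 0.17.

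Ltbp1, which anchors latent TGF-beta to fibrillin and fibronectin networks (chromosome 17, 75005568 to 75392512), was the member with the smallest p between the treatments. With vehicle its TPM were 11.8, 16.2, 15.1, 6.98, 10.04, 9.16 and 6.14 in replicates 1 to 7. With atorvastatin they were 14.1, 18.9, 22.9, 17.96, 12.5, 16.9 and 19.2. All 7 mice given atorvastatin exceeded the median of the vehicle group in CPM and 5 were above every vehicle mouse, so the groups overlapped in 2 mice. Means were 51.8 ± 9.47 CPM with atorvastatin and 33.1 ± 10.3 with vehicle (SD, n = 7), a log2 fold change of 0.64 ± 0.171 and a fold of 1.56 with a 95% interval of 1.24 to 1.97.

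The unadjusted p of Ltbp1 was 0.00114, rank 20 of the genes tested, which misses the threshold of 0.001, and its adjusted p was 0.680. It was past the threshold in 5 of 23 alternatives, namely in DESeq2, with every gene that had a count, and without SCI + Atorvastatin replicate 5, SCI + Vehicle replicate 1 or SCI + Vehicle replicate 2. Over the alternatives the log2 fold change was 0.54 to 0.75, and the lowest value came without SCI + Vehicle replicate 7. Fibroblast markers moved in the same direction between the treatments. Their 8 genes summed to 590 to 1662 TPM with atorvastatin and 77.9 to 976 with vehicle, with a median log2 fold change of 0.77, and the 4 Schwann cell markers to 92.5 to 219 and 2.22 to 156 TPM, with a median of 0.95. None of these 12 markers was called, and their part in the Ltbp1 values was not tested.

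Against the controls Ltbp1 rose with atorvastatin, by a log2 fold change of 0.95 ± 0.215 (edgeR adjusted p = 0.00572). With vehicle the value was 0.29 ± 0.344 (adjusted p = 0.566), and 2 of 7 vehicle mice lay below both controls. The controls were at 24.8 and 29.1 CPM, and their TPM of 5.42 and 11.3 spread more than their counts did.

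Ltbp2, which binds fibrillin and, unlike its relatives, does not carry latent TGF-beta (chromosome 12, 84783212 to 84876532), had 0 counts in both controls, which allows up to 0.148 and 0.134 CPM. It was at 1.76 to 12.9 CPM with vehicle and 3.73 to 16.5 with atorvastatin, so every SCI mouse was above the controls. Against a floor of 3 counts per library Ltbp2 was at least 40.3-fold higher with vehicle (edgeR adjusted p = 0.00136) and at least 67.1-fold higher with atorvastatin (adjusted p = 0.000199). These bounds rest on libraries in which many genes of moderate level had no count, and the part of that loss was not tested. Between the treatments Ltbp2 averaged 9.61 ± 4.52 CPM with atorvastatin and 5.77 ± 3.61 with vehicle, a log2 fold change of 0.73 ± 0.360 at an unadjusted p of 0.0545. Among SCI mice it varied most of the members, by 7.32 times between the lowest and the highest vehicle mouse in CPM. An antisense gene, D030025P21Rik, overlaps Ltbp2.

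Ltbp3, a carrier of latent TGF-beta (chromosome 19, 5740904 to 5758532), was at 29.1 to 65.0 TPM with vehicle, median 45.9, and at 40.4 to 61.1 with atorvastatin, median 51.5. The controls had 1619 and 2059 counts, similar to each other, while their TPM were 16.4 and 43.2. It rose with atorvastatin against the controls, by a log2 fold change of 0.56 ± 0.150 (edgeR adjusted p = 0.0134), and with vehicle the value was 0.38 ± 0.209 (adjusted p = 0.199). Between the treatments the log2 fold change was 0.16 ± 0.119, with a fold interval of 0.950 to 1.31.

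Ltbp4, which binds latent TGF-beta 1 and takes part in elastic fibre assembly (chromosome 7, 27305136 to 27337692), was at 11.6 to 40.9 TPM with vehicle and 16.7 to 41.2 with atorvastatin. The controls, at 24.2 and 4.78 TPM, spanned much of that range. Log2 fold changes against them were 0.49 with vehicle and 0.88 with atorvastatin, at edgeR adjusted p of 0.480 and 0.112. Against a single control, they were 1.58 and 1.99 without Uninjured Control replicate 1 and -0.14 and 0.26 without replicate 2. Between the treatments the value was 0.38 ± 0.203 at an unadjusted p of 0.0756, and in CPM 6 of the 7 mice given atorvastatin exceeded the median of the vehicle group.

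The summed TPM of the 4 binding proteins was 104 ± 15.4 with atorvastatin and 82.5 ± 18.4 with vehicle (SD, n = 7), and 46.0 and 59.3 in the controls. Ltbp3 made up 57.5% ± 9.00 of the sum with vehicle and 51.3% ± 3.84 with atorvastatin. Ltbp1 made up 13.5% ± 5.46 and 17.1% ± 4.01, and Ltbp4 27.1% and 28.4%. The ranges of all these shares overlapped between the treatments.

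Smad3, the transducer that carries the receptor signal to the nucleus (chromosome 9, 63646767 to 63757994), was close in level in injured and uninjured cord. It was at 14.8 to 22.6 TPM with vehicle, at 17.5 to 23.3 with atorvastatin and at 24.1 and 12.7 in the controls, so that the controls spanned all SCI mice. Against the controls its log2 value was 0.02 ± 0.283 for SCI + Vehicle and 0.15 ± 0.242 for SCI + Atorvastatin, and it was 0.11 ± 0.106 between the treatments. Against a single control, the first and second of these values were 0.68 and 0.81 without Uninjured Control replicate 1 and -0.44 and -0.31 without replicate 2. The value between the treatments corresponds to a fold of 1.08 with a 95% interval of 0.933 to 1.24.

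The wider pathway was read from 5 lists of 78 genes, of which 75 were tested. With vehicle 18 rose and 4 fell against the controls, beside 29.8% of all genes called in one direction or the other, and with atorvastatin 34 rose and 5 fell, beside 38.9%. The median log2 fold change over the 75 genes was 0.93 and 1.06. Of the 75, 9 had no count in either control but were above the floor with vehicle, beside 2220 of the 16091 genes tested. For such genes the values given below as at least a fold cover counting error only, as for Ltbp2. The part of the loss of moderate genes in the control libraries was not tested. Of the 19 tested genes of latency and activation, 5 rose and 1 fell with vehicle and 9 rose and 2 fell with atorvastatin. Itgb5, an integrin subunit that frees latent ligand as part of alpha-v beta-5, rose by 1.93 ± 0.132 and 2.13 ± 0.173 on the log2 scale. Mmp2, a gelatinase, had no count in either control and was at least 119-fold and 161-fold higher. Emilin1, a matrix glycoprotein that holds back ligand maturation, was also without a count in the controls and at least 77.3-fold and 92.7-fold higher. Plg, plasminogen made chiefly in liver, fell by 6.89 and 8.26, and in the controls, where it averaged 90.9 CPM, the liver markers were high as given above.

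Of the 10 co-receptors and other receptors, 2 rose with vehicle and 3 with atorvastatin, where 19.9% and 24.9% of all genes were called higher, and none of the list was called lower. Cd109, a co-receptor that restrains signalling, had no count in the controls and was at least 280-fold and 334-fold higher, with the limit given above. Tgfbrap1, a receptor-associated protein, rose by 1.06 ± 0.20 and 1.09 ± 0.20 on the log2 scale. Tgfbr3, betaglycan, which presents Tgfb2 to the receptors, rose by 0.90 ± 0.164 with atorvastatin and was at 0.48 ± 0.287 with vehicle. The pseudoreceptor Bambi was at 2.47 and 2.58 without being called.

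Of the 20 SMADs and their regulators, 3 rose and 2 fell with vehicle and 5 rose and 2 fell with atorvastatin, beside 29.8% and 38.9% of all genes called in one direction or the other. Ski, a repressor of SMAD transcription, averaged 81.2 CPM in the controls, 189 CPM with vehicle and 191 CPM with atorvastatin, and was called higher in both. Tgif1 was at least 64.8-fold and 81.2-fold higher and Tgif2 at least 39.7-fold and 41.8-fold higher, both with no count in the controls.

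Of the 22 tested target genes, 6 rose and 1 fell with vehicle and 13 rose and 1 fell with atorvastatin, where 19.9% and 24.9% of all genes were called higher. Timp1, an inhibitor of metalloproteinases, had no count in the controls and was at least 55.0-fold and 77.6-fold higher. Of the inhibitors of differentiation, Id1 rose by 2.47 ± 0.528 with vehicle and 2.54 ± 0.501 with atorvastatin and Id2 by 0.95 ± 0.213 and 1.01 ± 0.154. Id3, named here after its values were seen, was at 1.13 ± 1.13 and 1.27 ± 1.15 without being called. All 5 matrix binders of TGF-beta rose with atorvastatin and 2 with vehicle, beside the same shares of all genes. Among these proteoglycans and other binders, Fmod rose by 2.33 ± 0.636 and 2.73 ± 0.470, Bgn was at 1.20 ± 0.571 with vehicle and rose by 1.73 ± 0.285 with atorvastatin, and Vasn rose by 0.93 ± 0.274 and 1.06 ± 0.315. Aspn, with no count in the controls, was at least 7.62-fold and 20.4-fold higher, and called with atorvastatin.

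Between the treatments none of the 75 genes was called by edgeR, and DESeq2 called 1. At an unadjusted p below 0.05 there were 20, 18 higher and 2 lower with atorvastatin, beside 4.02% and 3.01% of all genes. Without SCI + Vehicle replicate 7 there were 15, and without SCI + Atorvastatin replicate 2 there were 12. For DESeq2 and for these fits without a mouse the shares of all genes are not given. The median log2 fold change was 0.41 for the target genes, 0.52 for the matrix binders, 0.23 for latency and activation, 0.20 for the other receptors and 0.02 for the SMADs and their regulators, beside -0.00140 over all genes. All adjusted p were 0.680 or above.

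Among the 6 latency genes at that level, all higher, Lrrc32, also called GARP, which holds latent TGF-beta on cell surfaces, had a log2 fold change of 1.10 ± 0.328 and averaged 6.22 against 2.90 CPM. Tgm2, a transglutaminase that cross-links the large latent complex, was at 0.45 ± 0.134, and Fbn1, the fibrillin to which the binding proteins attach, at 0.64 ± 0.241. The others were Mmp14 at 0.31, Itgb1 at 0.23 and Itgb5 at 0.18. Of the receptors, Tgfbr3 was at 0.40 ± 0.138 and the type I receptor Acvr1 at 0.34 ± 0.111. Of the SMADs and their regulators, the common partner Smad4 was at 0.27 ± 0.0974, while Smad9 was at -0.21 ± 0.0907 and the ubiquitin ligase Nedd4l at -0.18 ± 0.0675.

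Of the target genes, 8 were at that level, all higher. They included 3 fibrillar collagen genes, Col3a1 at 1.20 ± 0.425, Col1a1 at 0.84 ± 0.379 and Col1a2 at 0.80 ± 0.317 on the log2 scale. Ctgf, a matricellular growth factor, was at 0.71 ± 0.286, Tgfbi at 0.54 ± 0.178, Timp1 at 0.50 ± 0.196 and Tagln, a contractile protein gene, at 0.43 ± 0.191. Of the matrix binders Dcn, decorin, was at 1.04 ± 0.437. Dcn is itself among the 8 fibroblast markers, and Tagln among the 8 markers of smooth muscle and pericytes. The fibroblast marker sums given above moved with these genes, and their part in them was not tested.

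**Figure D4:**
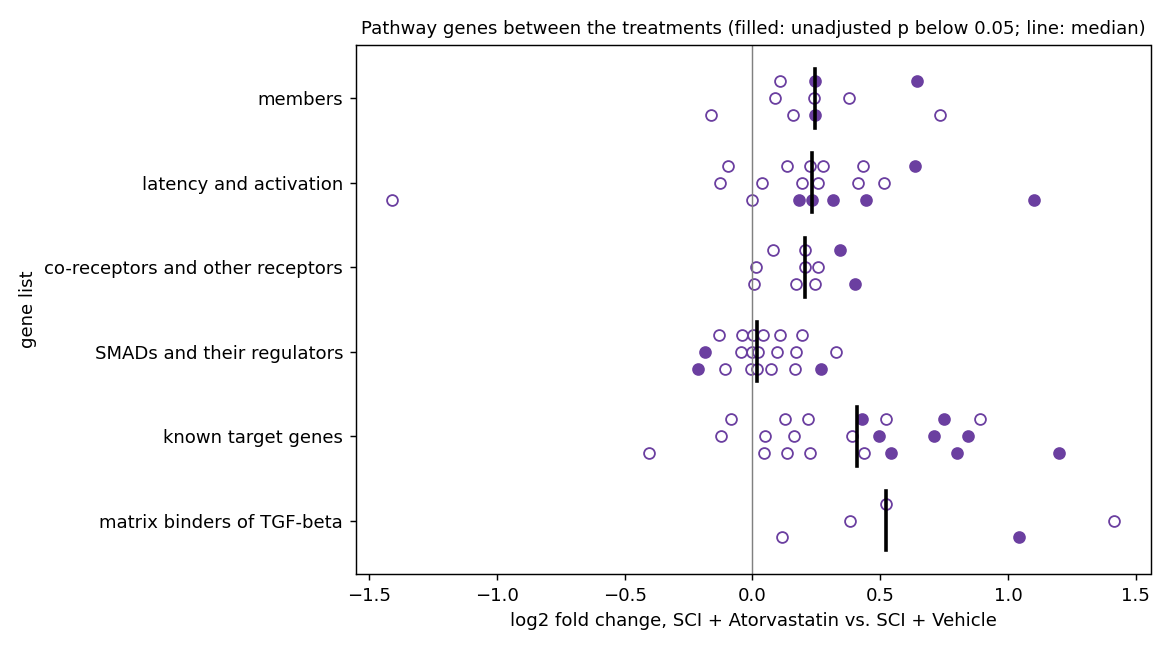
Each point is a gene, placed by its fitted log2 fold change between SCI + Atorvastatin and SCI + Vehicle, in rows for the 10 members and 5 lists; filled points have an unadjusted p below 0.05 and lines mark medians. Target genes and matrix binders have medians of 0.41 and 0.52, and the SMADs and their regulators 0.02.

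The members were then compared with each other across the 14 SCI mice, on log2 CPM with the mean of each treatment removed. These correlations describe mice that share a sequencing run and a tissue, and they carry no test. Of 45 pairs, 28 were positive and the median r was 0.16. Both receptors, Ltbp1, Ltbp2 and Smad3 were positive with each other, with r of 0.53 to 0.80. Within the groups this did not hold for every pair, since in the atorvastatin mice alone r was -0.15 for Tgfbr1 with Tgfbr2 and -0.02 for Tgfbr1 with Ltbp1, against 0.95 and 0.85 in the vehicle mice. The highest was Tgfbr1 with Smad3 (Pearson r = 0.80, Spearman rho = 0.62), and r was 0.78 without the 2 mice farthest from the median. In the vehicle mice alone that pair had r = 0.95 and in the atorvastatin mice 0.21. Tgfbr2 with Ltbp1 had r = 0.71, and 0.74 in each of both groups, and 0.62 without 2 mice.

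Ltbp3 varied in another way. Its r was -0.53 with Ltbp2 and -0.47 with Ltbp1, and 0.66 with Tgfb1, although the last was 0.23 without 2 mice. Among the ligands r was 0.43 for Tgfb1 with Tgfb2, 0.29 for Tgfb2 with Tgfb3 and -0.05 for Tgfb1 with Tgfb3. Without 2 mice these values were -0.02, -0.18 and -0.06. For Tgfb1 with Tgfb3 r was 0.30 in the atorvastatin mice alone and -0.57 in the vehicle mice.

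**Figure D5:**
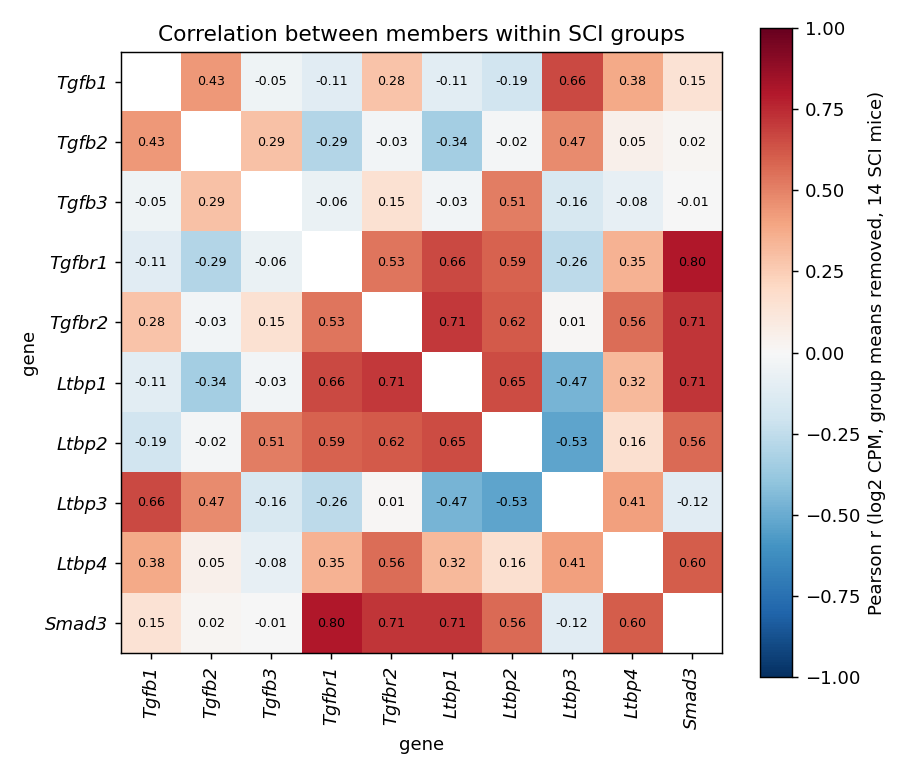
Pearson correlation of each pair of the 10 genes across 14 SCI mice (rows and columns are genes, colour and number give r after the mean of each group was removed). Values among Tgfbr1, Tgfbr2, Ltbp1, Ltbp2 and Smad3 are positive over both groups together, and Ltbp3 is negative with Ltbp1 and Ltbp2 at -0.47 and -0.53.

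The genes most like each member were sought among 15930 others by the same measure. Smad3 varied most like the collagen genes Col1a1 (r = 0.91) and Col1a2 (r = 0.90) and like Arhgap10 (r = 0.89). Ltbp1 was most like Il6st, the shared receptor subunit of the interleukin-6 family (r = 0.91), then Ncmap, a myelin protein gene on the Schwann cell list (r = 0.91), and Htra4 (r = 0.90). Ltbp2 was most like Tmem176b (r = 0.96), Apod, apolipoprotein D (r = 0.93), and Elovl1 (r = 0.90). Tgfbr1 was most like Ttc27, Gm10790 and Tnc, tenascin C (r = 0.90 each), and Tgfbr2 like Ptgis, prostacyclin synthase (r = 0.90), Trim25 and Arap1 (r = 0.88 each).

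The other members had different partners. Ltbp3 was most like Ahdc1, Prr12 and the potassium channel gene Kcnc1 (r = 0.95, 0.95 and 0.94), and Ltbp4 like the mechanosensitive channel gene Piezo1 (r = 0.87), Myh9 and Pou2f2 (r = 0.86 each). Tgfb1 was most like 2210011C24Rik, Foxj2 and Tmem132a (r = 0.90, 0.89 and 0.88), Tgfb2 like BC030500, Slc35e3 and Gpbar1 (r = 0.84, 0.84 and 0.83), and Tgfb3 like Mov10, Dctn3 and Eva1b (r = 0.87, 0.85 and 0.81). Over these 30 partners r without the 2 farthest mice was 0.66 to 0.92. With 14 mice and 15930 genes, the highest of so many correlations is large by selection.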

How the data were processed

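Groups were taken from the sample labels. Per the labels, the authors checked reads with FastQC 0.12.1, trimmed them with Trimmomatic 0.38, aligned them to mm10 with STAR 2.5.4b and quantified genes with RSEM 1.3.1. They deposited whole-number counts, with no normalization, and TPM, normalized for gene length, and the step that made whole numbers is not given in the sources used here. The 2 scales can differ through transcript length. In the Uninjured Control mice they also disagreed where TPM was 0. There Tgfb2 had 17 counts in replicate 1, and Fbn2 had up to 261 counts with a TPM of 0 in both. The cause was not tested.

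Of 24411 genes, the 16091 whose group mean exceeded 1 TPM in any group were tested with edgeR 4.0.16 (quasi-likelihood, TMM scaling, whole library totals, R 4.3.3) in 1 fit for each of 3 comparisons, with Benjamini-Hochberg adjustment. CPM are counts scaled to library size with that scaling. Limits from a count of 0 (3 counts) and 95% intervals were computed, and zero-count limits cover counting error only. The scripts were tested on simulated data. Nothing in the labels says more of replicates than that they are separate mice, so p-values measure the spread between mice. Replicate numbers did not pair the mice of the SCI groups.

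The members and lists were chosen with earlier results of these data known. All 10 members are named; of each list the 3 genes with the smallest p against Uninjured Control and those with p below 0.05 between treatments; and for each member the 3 genes of highest Pearson r. Some items that this rule names are not reported here. Alternatives used DESeq2 1.42.0 and its size factors, 1 fit of all groups, other filters, limma 3.58.1 on log2 TPM with a pseudocount of 1 or 0.1, the replicate block, and each mouse left out. Lists of 9 cell types served as markers; results for endothelium are given only here, with 1 of 8 called higher with vehicle and 2 with atorvastatin against Uninjured Control. Of the 8 smooth muscle and pericyte markers 2 and 4 were called higher. Astrocyte markers were called higher in 4 and lower in 1 of 6 in both, and neuron markers lower in 5 and 6 of 8. Oligodendrocyte markers were called lower in 1 and 3 of 6, Schwann cell markers lower in 0 and 2 of 4, fibroblast markers higher in 2 and 6 of 8, and liver markers lower in 8 of 8 in both. No marker was called between the treatments.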

Additional observations from a re-analysis of the deposited data

How the results depend on the processing

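Against Uninjured Control, the number of the 10 members called higher depended on the model. It was 3 with vehicle and 5 with atorvastatin, and became 6 and 8 with limma on log2 TPM with either pseudocount. It was 8 with atorvastatin when all groups shared 1 fit. The members added in these alternatives were the 3 ligands. With voom and a weight for each group, an alternative chosen after seeing the data, it was 0 and 0. With each SCI mouse left out, it stayed at 3 with vehicle and 5 with atorvastatin. With either control left out a single control remained, and no count is given. The share of all genes called was not set beside these counts, so they do not describe the members alone.

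The replicate block, which takes same-numbered mice as pairs, gave 0 members called against Uninjured Control with either treatment. Only SCI mice that share a number with 1 of the 2 controls inform that contrast. The fit therefore had little means to call any gene, and its 0 does not bear on the members. The numbers did not pair the mice of the SCI groups. Deviations of same-numbered SCI + Atorvastatin and SCI + Vehicle mice had r of -0.141 to 0.0833, and 0 of 7 mice correlated best with its own number. With the controls r was 0.0454 and 0.0225 for SCI + Vehicle, where both correlated best with their own number. It was -0.0133 and -0.00798 for SCI + Atorvastatin, where neither did. With 2 controls to choose from this check cannot decide on pairing. Under the block Ltbp3 with vehicle was at -0.0038 on the log2 scale, with the same limit. Of the other pathway genes 1 was called higher and 0 lower with vehicle, and 0 and 0 with atorvastatin. The share of all genes called under the block is not given.

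Of the other pathway genes, those called higher with vehicle (18) ran from 18 to 36 and those called higher with atorvastatin (34) from 33 to 52 with each mouse left out, with the largest values without Uninjured Control replicate 1. Those called lower (4 and 5) ran from 3 to 7 and from 4 to 10, with the largest values without Uninjured Control replicate 2. Those called higher with vehicle were 30 with all groups in 1 fit, 11 with TPM above 1 in every condition and 1 with voom. Those called lower (4) were 2 with that filter, 2 and 1 with limma at pseudocounts of 1 and 0.1, and 1 with voom. With atorvastatin (34 higher, 5 lower) limma gave 2 lower with either pseudocount, and voom 0 higher and 1 lower. The share of all genes called in each alternative was not set beside these counts, so they do not describe the pathway alone.

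Between the treatments DESeq2 called 1 member and 1 other pathway gene, no filter other than 1 count called 1 member, and limma called 2 and 1 other genes. With all groups in 1 fit, 1 member and 9 other genes had an unadjusted p below 0.05. With each mouse left out that count of other genes (20) ran from 12 to 25, and members called from 0 to 1. Here too the shares of all genes were not set beside the counts, which do not describe the pathway alone.

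Smad3 changed sign with vehicle without SCI + Vehicle replicate 2 (-0.05), replicate 6 (-0.01) and Uninjured Control replicate 2 (-0.44), and with atorvastatin without Uninjured Control replicate 2 (-0.31). Its highest values were 0.68 and 0.81, both without Uninjured Control replicate 1. Ltbp4 with vehicle was at -0.14 without Uninjured Control replicate 2 and at 1.58 without replicate 1. Where no cause is given, the cause was not tested. The controls, 2 mice with many genes of moderate level at 0, limit every comparison with them.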
